A study of Homo sapiens with 12 samples.

Results

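The 55 genes described here encode proteins that license replication origins, start and carry replication forks, supply deoxynucleotides and drive entry into S phase. They were chosen by symbol, each through the probe set of that symbol alone with the highest mean over 12 arrays, and were kept at a level of log2 4 or more on at least 3 arrays. All 55 listed genes were kept, among 13130 genes tested. Every member was above log2 4 on all 12 arrays, with a lowest array value of 5.43, so the filter removed none of them. The cells were Sk-hep1, an established human line that the labels call an endothelial adenocarcinoma from ascites of the liver. They had been incubated in high-fat medium (HFM, on a DMEM/F12 base) or in growth medium (GM, on a DMEM base) for 12 or 24 hours, with 3 arrays in each of the 4 groups. Which fat HFM contained was not stated in the labels. Fat and basal medium changed together between the arms and cannot be told apart. The line was grown in DMEM with fetal bovine serum before the media were applied, and the labels do not say whether replicates were separate cultures. A p-value here therefore reflects the scatter among arrays, possibly only technical scatter. Values are log2 probe set levels made with GCRMA, a background correction and normalisation for Affymetrix arrays, and the number of arrays limits the precision.

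Replication is prepared in G1, when the origin recognition complex, CDC6 and CDT1 load the ring-shaped MCM helicase onto DNA. At the start of S phase the kinase CDC7 with its partner DBF4, together with cyclin-dependent kinases, joins CDC45 and the GINS complex to MCM and the helicase starts to unwind. Polymerases, the sliding clamp PCNA and its loader then copy the strands, and transcription of many of these genes is driven by E2F factors once cyclin E and CDK2 have inactivated the retinoblastoma protein. Because the samples are bulk cultures, fewer cells in S phase and less RNA per cell cannot be told apart.

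The E2F site is the best known control element of these promoters, so the members' promoter windows were searched for it. The windows were those of RefSeq (GRCh38.p14), 250 bases before to 50 bases after each gene's start, and 48 of the 55 members had at least 1. The words searched on both strands were TTTCCCGC, TTTCGCGC, TTTGCCGC and TTTGGCGC. At least 1 of them was present for 24 of the 48 members, which is 50%, against 6.46% of the 10590 tested genes with a window and 3.31% of all 35116 windows. A CCAAT box was present for 29 of the 48 members (60.4%, against 42.9% of tested genes) and the word TTTGAA, the core of the CHR element of mitotic genes, for 2 (4.17%, against 13.7%). A match is a description of letters and not a binding site. The E2F word was found for 11 of 17 members with a window that were lower in HFM at 12 hours, 9 of 16 that were higher and 4 of 15 that did not pass. The CCAAT and E2F words could lie in the same window.

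The 150 bases just before the start are shown for 8 members, 5′ to 3′ on the gene's strand, with E2F words in capitals. E2F2, CDC25A and CDT1 stand for genes that were lower in HFM at both times, ORC3, RFC3 and POLA1 for genes that were higher at 12 hours and lower at 24 hours, E2F1 for a regulator that did not pass the medium test at either time, and FEN1 for a gene with a large change and no such word in its window. The stretches are chr1:23531234-23531383 (minus strand) for E2F2, chr3:48188418-48188567 (minus strand) for CDC25A, chr16:88803639-88803788 (plus strand) for CDT1, chr6:87589985-87590134 (plus strand) for ORC3, chr13:33817999-33818148 (plus strand) for RFC3, chrX:24693768-24693917 (plus strand) for POLA1, chr20:33686386-33686535 (minus strand) for E2F1 and chr11:61792761-61792910 (plus strand) for FEN1.
E2F2: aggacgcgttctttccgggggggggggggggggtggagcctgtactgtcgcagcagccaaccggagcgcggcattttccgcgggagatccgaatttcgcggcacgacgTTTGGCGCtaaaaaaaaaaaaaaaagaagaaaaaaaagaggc
CDC25A: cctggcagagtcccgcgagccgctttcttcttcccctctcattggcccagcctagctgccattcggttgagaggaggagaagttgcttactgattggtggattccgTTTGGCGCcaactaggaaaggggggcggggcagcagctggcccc
CDT1: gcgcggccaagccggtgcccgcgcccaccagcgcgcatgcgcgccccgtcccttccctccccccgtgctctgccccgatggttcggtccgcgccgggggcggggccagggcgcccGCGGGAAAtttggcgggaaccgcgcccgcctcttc
ORC3: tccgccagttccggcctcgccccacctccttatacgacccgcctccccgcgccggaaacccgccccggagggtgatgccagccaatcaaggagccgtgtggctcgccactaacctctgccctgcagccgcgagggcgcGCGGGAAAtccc
RFC3: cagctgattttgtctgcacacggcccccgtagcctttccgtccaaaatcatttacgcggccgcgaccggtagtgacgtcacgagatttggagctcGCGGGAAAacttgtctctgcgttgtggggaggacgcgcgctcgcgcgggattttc
POLA1: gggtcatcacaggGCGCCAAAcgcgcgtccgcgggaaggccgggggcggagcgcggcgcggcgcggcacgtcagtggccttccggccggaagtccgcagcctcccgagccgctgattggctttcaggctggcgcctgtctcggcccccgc
E2F1: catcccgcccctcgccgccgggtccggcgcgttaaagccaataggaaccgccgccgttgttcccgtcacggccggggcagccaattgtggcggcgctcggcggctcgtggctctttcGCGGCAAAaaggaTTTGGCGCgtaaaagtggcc
FEN1: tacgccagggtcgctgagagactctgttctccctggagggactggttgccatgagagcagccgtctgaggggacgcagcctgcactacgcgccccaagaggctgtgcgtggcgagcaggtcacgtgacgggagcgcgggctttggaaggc
Each of the 3 genes that were lower at both times and of the 3 that changed direction held 1 word in its window, and E2F1 held 2.

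The arrays of a group correlated at r of 0.9913 to 0.9989 across genes. Replicate 1 of HFM at 12 hours stood apart, at 0.9918 and 0.9913 with the other HFM arrays of that time, which correlated at 0.9989 with each other. Hybridisation controls, which are spiked in and do not come from the cells, had a mean of 10.26 on that array, 10.08 and 10.14 on the other HFM arrays and 10.33 to 10.37 on the GM arrays at 12 hours. They lay between 9.95 and 10.13 on the 24-hour arrays. The 3′ minus 5′ difference of ACTB, a measure of RNA integrity, was 1.58 ± 0.06 (SD, n = 3) in HFM and 1.07 ± 0.05 in GM at 24 hours (exact two-sided permutation p = 0.1, the smallest that 3 against 3 arrays allow), in log2 units. For GAPDH it was 0.27 ± 0.03 in HFM and 0.16 ± 0.02 in GM at 24 hours, with the same exact permutation p of 0.1. At 12 hours the ACTB difference was 0.84 ± 0.13 in HFM and 0.89 ± 0.03 in GM (exact permutation p = 0.8).

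Of 10 endothelial markers, 4 (PECAM1, ROBO4, NOS3 and ICAM2) passed the filter, and CDH5, VWF, KDR, TEK, TIE1 and CLDN5 did not. The mesenchymal list had 5 of 6 over the filter and the epithelial list 5 of 7, without EPCAM and CDH1. Of 8 hepatocyte markers, 4 passed the filter, ALB, APOA1 and APOB did not, and HNF4A had no probe set of its symbol alone. Of the leukocyte markers, CD3D, CD14 and CORO1A passed and PTPRC did not. At 24 hours the mean level of the endothelial list was 3.40 to 3.57 on HFM arrays and 3.62 to 3.66 on GM arrays, and that of the epithelial list 7.26 to 7.32 on HFM arrays and 7.50 to 7.56 on GM arrays. The leukocyte list averaged 3.67 to 3.76 on HFM arrays and 3.83 to 4.01 on GM arrays at 24 hours. The hepatocyte list, at 4.01 to 4.09 on HFM arrays and 3.92 to 3.98 on GM arrays, had higher means in HFM at that time. So did the mesenchymal list, at 8.86 to 8.97 on HFM arrays and 8.80 to 8.82 on GM arrays. Its genes disagreed, since by limma at an adjusted p under 0.05, 2 of 5 were higher and 1 lower. Their median log2 change was 0.01, from -0.37 to 0.51. Of all genes tested 20.6% were higher and 37.5% lower. At 12 hours the endothelial list was 3.48 to 3.59 on HFM arrays and 3.96 to 4.01 on GM arrays, the epithelial list 7.44 to 7.58 on HFM arrays and 7.89 to 7.99 on GM arrays, and the leukocyte list 4.15 to 4.27 on HFM arrays and 4.55 to 4.62 on GM arrays. The hepatocyte list was 3.95 to 4.03 on HFM arrays and 4.10 to 4.15 on GM arrays at 12 hours. The mesenchymal list reached 9.01 at most on HFM arrays and 9.07 on GM arrays at 12 hours, where its ranges overlapped. The part of these lists and of RNA integrity in the results below was not tested. The calls that changed in a fit with a term for the control signal are given below.

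In HFM at 24 hours nearly all replication genes were lower than in GM. Of the 55 members, 50 were lower and 0 higher by limma at an adjusted p under 0.05, 5 did not pass, and 37.5% of all genes tested were called lower and 20.6% higher. The members' median log2 change was -0.51, against -0.08 over all genes, and every member's estimate was negative, from -2.04 for GINS3 to -0.01 for E2F1. On 51 members the 3 HFM arrays lay below the 3 GM arrays, as they did in 43.0% of all genes, and on 0 above them (25.7%). A change of at least 2-fold was reached by 11 members, against 5.2% of all genes in that direction. No member was 2-fold higher, against 2.28%. After each array was centred on its median, the median of all genes was 0.10 in place of -0.08, and 4852 genes were higher and 3434 lower, in place of 2700 and 4923. The members' median was then -0.33. Of the members, 43 were lower and 1, POLD3, was higher at 0.15 (adjusted p = 0.015). Under that scaling CDC7, MCM6, ORC3, RFC1, RFC4, RRM1 and RRM2 no longer passed. These changes stood beside the larger ACTB and GAPDH 3′ minus 5′ differences of the HFM arrays at 24 hours.

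**Figure D1:**
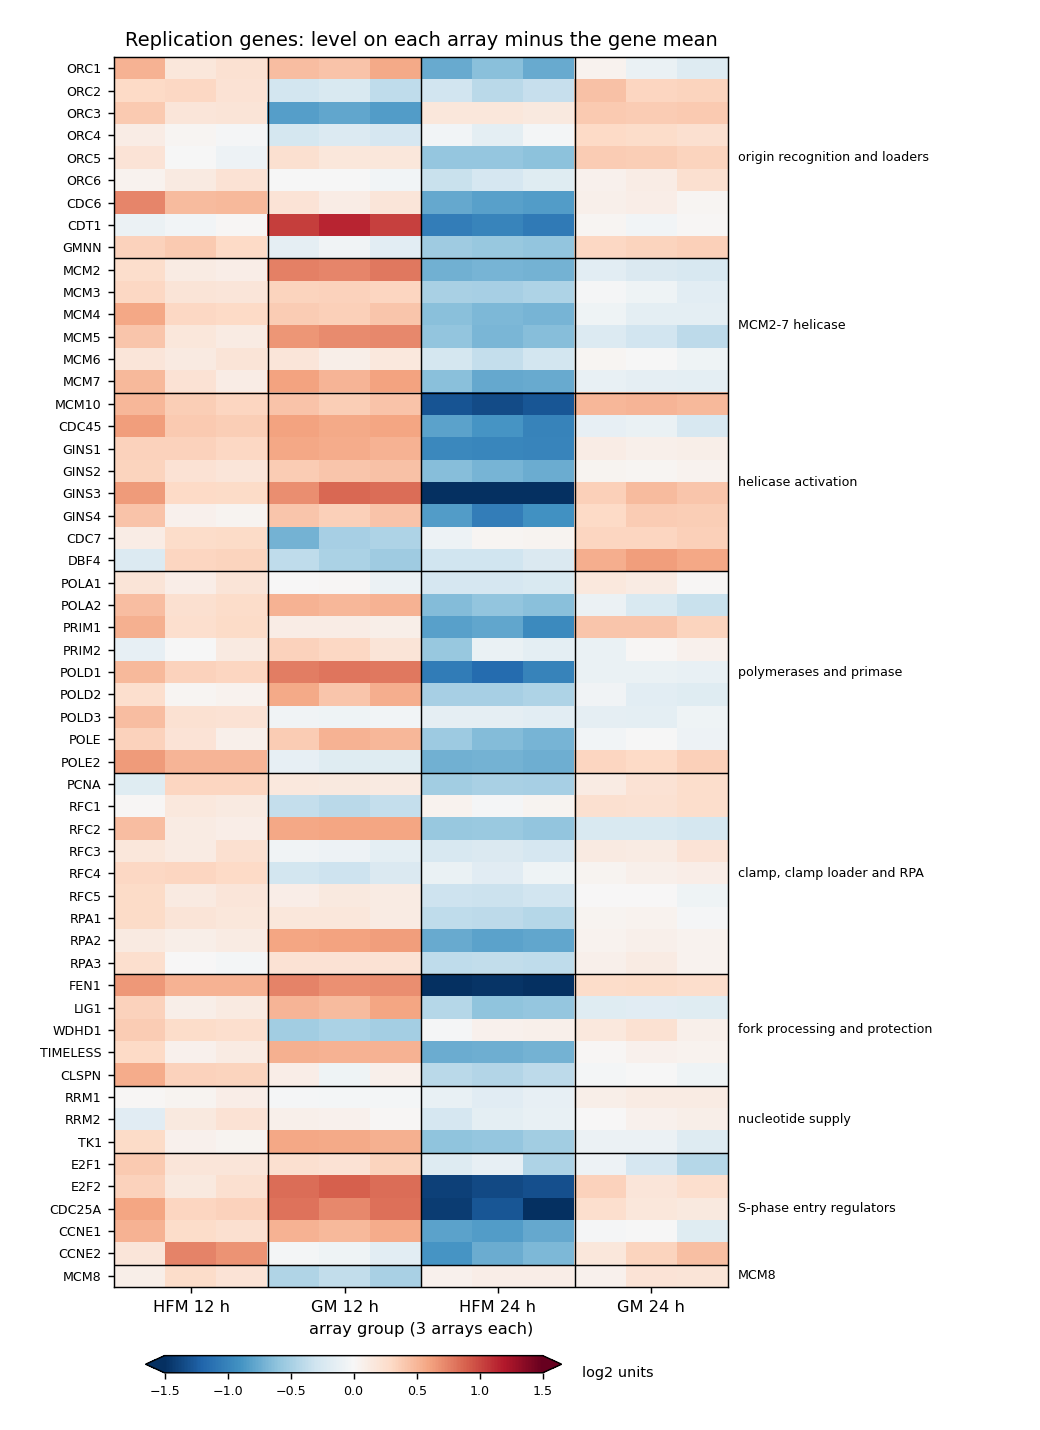
Level of each of the 55 genes (rows, grouped by role) on each of the 12 arrays (columns, 3 per group) minus the gene's mean over all arrays, in log2 units, with red above and blue below the mean. The HFM 24-hour columns are blue for nearly all genes, and the HFM 12-hour and GM 12-hour columns differ from each other by gene.

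All 8 helicase activation genes were lower in HFM at 24 hours, with a median of -0.96. GINS3, a subunit of the GINS ring that completes the active helicase, stood at 5.49, 5.48 and 5.43 on the HFM arrays and 7.44, 7.56 and 7.50 on the GM arrays at 24 hours. It fell by 2.04 ± 0.09 (SE, n = 3 per group, adjusted p = 3.3e-09) on the log2 scale, which is 4.11-fold lower. The HFM and GM arrays did not overlap. At 12 hours GINS3 stood at 7.72, 7.38 and 7.38 on the HFM arrays and 7.78, 7.95 and 7.92 on the GM arrays, and replicate 1 of HFM was the highest HFM array, next to the GM arrays. MCM10, which binds the new fork and is needed for unwinding, was 7.05, 7.0 and 7.06 on the HFM arrays and 8.84, 8.85 and 8.83 on the GM arrays at 24 hours. It fell by 1.80 ± 0.05 (SE, n = 3 per group, adjusted p = 2.2e-10), and its 3 probe sets all passed in that direction. At 12 hours MCM10 was 8.85, 8.72 and 8.67 on the HFM arrays and 8.77, 8.71 and 8.77 on the GM arrays, with overlapping groups and a change of -0.01 (adjusted p = 0.92). Another of its probe sets was higher at 12 hours, at 0.23 (adjusted p = 0.024). GINS4, another subunit of the same ring, was 7.12, 6.93 and 7.05 on the HFM arrays and 8.26, 8.35 and 8.33 on the GM arrays at 24 hours, and it fell by 1.28 ± 0.09 (SE, n = 3 per group, adjusted p = 2.5e-07). At 12 hours its values were 8.39, 8.03 and 8.0 on the HFM arrays and 8.38, 8.32 and 8.39 on the GM arrays, and its change of -0.22 (adjusted p = 0.056) did not pass. The other GINS subunits fell less at 24 hours, GINS1 by 1.08 and GINS2 by 0.73. Another GINS2 probe set did not pass at 24 hours, at 0.0006. It is the one taken when possibly cross-hybridising types (names ending in _x_at, _s_at or _a_at) were left out. A further GINS2 probe set, not of those types, fell by 0.63 at 24 hours (adjusted p = 0.0011). CDC45, the helicase partner of GINS, fell by 0.74.

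The kinase that fires origins moved in opposite directions at 24 and at 12 hours. CDC7, its catalytic subunit, stood at 7.58, 7.69 and 7.70 on the HFM arrays and 7.99, 7.98 and 8.02 on the GM arrays at 24 hours, a fall of 0.34 (adjusted p = 0.0015). At 12 hours its values were 7.77, 7.94 and 7.94 on the HFM arrays and 6.96, 7.17 and 7.20 on the GM arrays, and it rose by 0.78 ± 0.07 (SE, n = 3 per group, adjusted p = 3.7e-06). DBF4, the activating subunit, was 9.18, 9.18 and 9.26 on the HFM arrays and 10.02, 10.10 and 10.05 on the GM arrays at 24 hours. It fell by 0.85 ± 0.12 (SE, n = 3 per group, adjusted p = 5.3e-05). The 12-hour values of DBF4 were 9.27, 9.80 and 9.81 on the HFM arrays and 9.10, 9.0 and 8.94 on the GM arrays, and it rose by 0.61 ± 0.12 (SE, n = 3 per group, adjusted p = 0.00079). On replicate 1 of HFM, DBF4 was closer to the GM arrays than to the other HFM arrays of that time.

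All 9 origin recognition and loading genes were lower in HFM at 24 hours, with a median of -0.71. CDT1, which brings MCM to the origin, stood at 7.0, 7.05 and 6.98 on the HFM arrays and 8.06, 7.99 and 8.06 on the GM arrays at 24 hours, and it fell by 1.03 ± 0.05 (SE, n = 3 per group, adjusted p = 1.2e-08). The groups did not overlap. A second CDT1 probe set did not pass at 24 hours, at -0.08 (adjusted p = 0.59 over all probe sets). The fall at that time therefore rests on the chosen probe set. Both CDT1 probe sets are of the types left out as possibly cross-hybridising, so CDT1 has no value in that setting. CDT1 was also the member with the largest fall at 12 hours, with 7.94, 7.99 and 8.05 on the HFM arrays and 9.07, 9.17 and 9.06 on the GM arrays at 12 hours. It fell by 1.11 ± 0.05 (SE, n = 3 per group, adjusted p = 4e-08), and the second probe set fell by 0.34 (adjusted p = 0.008).

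ORC5, a subunit of the origin recognition complex, stood at 8.12, 8.13 and 8.09 on the HFM arrays and 9.09, 9.08 and 9.04 on the GM arrays at 24 hours. It fell by 0.96 ± 0.07 (SE, n = 3 per group, adjusted p = 1.8e-07). At 12 hours it was 8.91, 8.70 and 8.63 on the HFM arrays and 8.95, 8.87 and 8.88 on the GM arrays, and the change of -0.16 (adjusted p = 0.063) did not pass. GMNN encodes geminin, the inhibitor of CDT1, and was 9.92, 9.89 and 9.87 on the HFM arrays and 10.77, 10.79 and 10.82 on the GM arrays at 24 hours. It fell by 0.90 ± 0.05 (SE, n = 3 per group, adjusted p = 2e-08), in the same direction as the gene of its target. At 12 hours GMNN was 10.81, 10.85 and 10.75 on the HFM arrays and 10.33, 10.41 and 10.31 on the GM arrays, and it rose by 0.46 ± 0.05 (SE, n = 3 per group, adjusted p = 9.6e-06), opposite to CDT1. CDC6, an ATPase of the same loading step, fell by 0.88 at 24 hours and rose by 0.40 at 12 hours, although its other probe set stood at -0.04 at 12 hours (adjusted p = 0.7).

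The 6 subunits of the origin recognition complex were unequal. ORC3 stood at 8.41, 8.41 and 8.39 on the HFM arrays and 8.63, 8.62 and 8.63 on the GM arrays at 24 hours, and it fell by 0.22 ± 0.06 (SE, n = 3 per group, adjusted p = 0.0056), the smallest change of its class. At 12 hours it was 8.63, 8.42 and 8.43 on the HFM arrays and 7.42, 7.46 and 7.40 on the GM arrays. It rose by 1.07 ± 0.06 (SE, n = 3 per group, adjusted p = 8.4e-08), the largest rise among the members at that time. The low group in ORC3 was GM at 12 hours alone, as the plot of levels on the 12 arrays shows. At 24 hours the other subunits fell by 0.96 for ORC5, 0.71 for ORC2, 0.63 for ORC1, 0.39 for ORC6 and 0.34 for ORC4. At 12 hours ORC2 rose by 0.57 and ORC4 by 0.28, whereas ORC1 at -0.18, ORC5 at -0.16 and ORC6 at 0.15 did not pass.

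**Figure D2:**
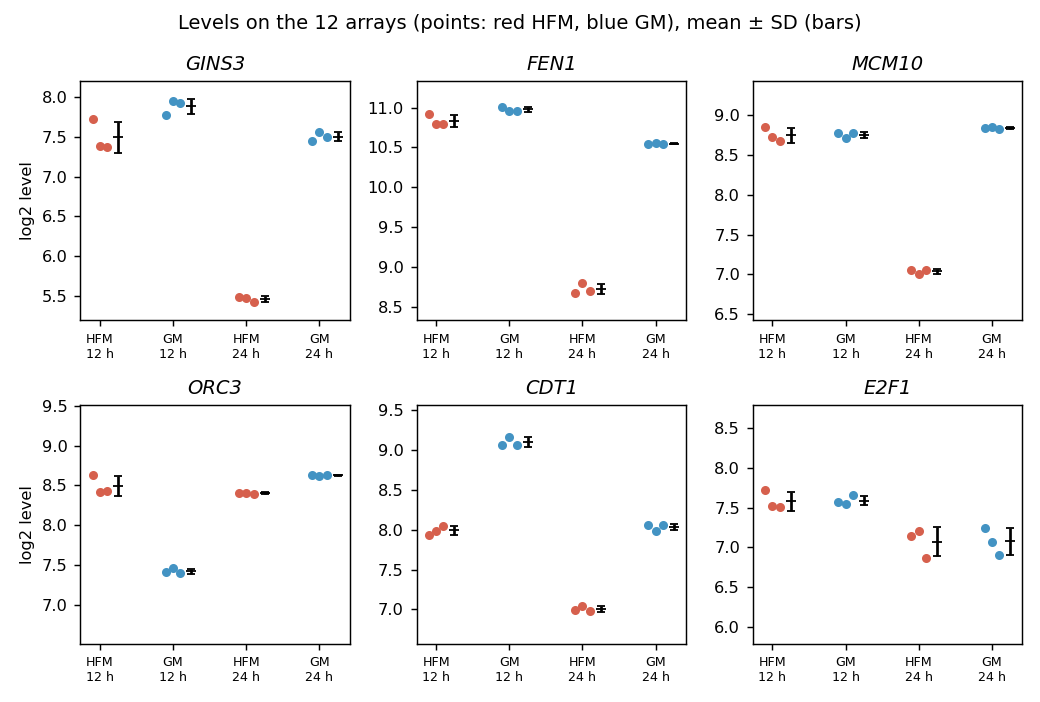
Log2 levels of 6 members on the 12 arrays (points) with the group mean ± SD (bars, n = 3), with HFM left of GM at each time and an equal span of 3 log2 units in each panel. GINS3, FEN1 and MCM10 are low only on the HFM 24-hour arrays, ORC3 is low on the GM 12-hour arrays, CDT1 is highest on the GM 12-hour arrays, and E2F1 overlaps between media at both times.

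All 6 genes of the MCM helicase ring fell in HFM at 24 hours, by 0.29 to 0.58. Their spread was narrower than that of the GINS genes. MCM7 stood at 9.66, 9.52 and 9.52 on the HFM arrays and 10.17, 10.15 and 10.13 on the GM arrays at 24 hours, and it fell by 0.58 ± 0.08 (SE, n = 3 per group, adjusted p = 7.6e-05). MCM4 was 9.30, 9.25 and 9.23 on the HFM arrays and 9.86, 9.77 and 9.77 on the GM arrays at 24 hours, and it fell by 0.54 ± 0.07 (SE, n = 3 per group, adjusted p = 3.7e-05). MCM2 was 9.39, 9.41 and 9.40 on the HFM arrays and 9.95, 9.89 and 9.86 on the GM arrays at 24 hours, and it fell by 0.51 ± 0.05 (SE, n = 3 per group, adjusted p = 6.1e-06). In each of these the 3 HFM arrays were below the 3 GM arrays. MCM5 was 9.31, 9.21 and 9.26 on the HFM arrays and 9.70, 9.61 and 9.50 on the GM arrays at 24 hours, a fall of 0.34 (adjusted p = 0.0022). MCM6, with 10.20, 10.11 and 10.20 on the HFM arrays and 10.50, 10.46 and 10.41 on the GM arrays at 24 hours, had the smallest fall, 0.29 (adjusted p = 0.00037). The other MCM6 probe set stood at 0.07 (adjusted p = 0.6), and the MCM6 call was lost with the mean of its probe sets.

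At 12 hours the ring's genes divided. MCM2 stood at 10.37, 10.23 and 10.21 on the HFM arrays and 10.86, 10.84 and 10.90 on the GM arrays at 12 hours, and it fell by 0.60 ± 0.05 (SE, n = 3 per group, adjusted p = 2.9e-06). MCM5 was 10.32, 10.07 and 10.02 on the HFM arrays and 10.56, 10.60 and 10.62 on the GM arrays at 12 hours, and it fell by 0.46 ± 0.08 (SE, n = 3 per group, adjusted p = 0.00036). MCM7 was 10.77, 10.50 and 10.40 on the HFM arrays and 10.88, 10.79 and 10.88 on the GM arrays at 12 hours, and it fell by 0.29 ± 0.08 (SE, n = 3 per group, adjusted p = 0.0097). Replicate 1 of HFM was the highest of the HFM arrays in each of these 3 genes. By contrast MCM4 was 10.51, 10.24 and 10.23 on the HFM arrays and 10.30, 10.28 and 10.34 on the GM arrays at 12 hours and MCM6 10.65, 10.61 and 10.66 on the HFM arrays and 10.65, 10.55 and 10.63 on the GM arrays at 12 hours, with overlapping groups and changes of 0.01 (adjusted p = 0.88) and 0.03 (adjusted p = 0.63). MCM3 also did not pass at 12 hours, at -0.11 (adjusted p = 0.11), although its groups did not overlap. For MCM4, 1 other probe set was lower at 12 hours, at -0.21 (adjusted p = 0.038), and the rest did not pass. With the term for the control signal MCM4 passed as higher at that time. MCM8, a helicase related to the ring that acts in homologous recombination and not in licensing, behaved differently. It was 7.39, 7.42 and 7.42 on the HFM arrays and 7.39, 7.53 and 7.52 on the GM arrays at 24 hours, and its change of -0.07 (adjusted p = 0.37) did not pass. At 12 hours MCM8 was 7.40, 7.59 and 7.52 on the HFM arrays and 6.86, 6.95 and 6.84 on the GM arrays, and it rose by 0.62 ± 0.06 (SE, n = 3 per group, adjusted p = 6.4e-06). Its other probe set stood at -0.39 at 12 hours and did not pass (adjusted p = 0.051), so the rise of MCM8 rests on 1 probe set.

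Of the 9 polymerase and primase genes, 7 were lower in HFM at 24 hours and PRIM2 and POLD3 did not pass. PRIM1, the catalytic primase subunit that starts each new strand, stood at 8.42, 8.46 and 8.28 on the HFM arrays and 9.64, 9.64 and 9.57 on the GM arrays at 24 hours. It fell by 1.23 ± 0.07 (SE, n = 3 per group, adjusted p = 5.1e-08). POLE2, the second subunit of the leading-strand polymerase epsilon, was 8.59, 8.59 and 8.57 on the HFM arrays and 9.63, 9.61 and 9.66 on the GM arrays at 24 hours, and it fell by 1.05 ± 0.05 (SE, n = 3 per group, adjusted p = 7.6e-09). POLD1, the catalytic subunit of the lagging-strand polymerase delta, was 6.88, 6.78 and 6.94 on the HFM arrays and 7.84, 7.84 and 7.82 on the GM arrays at 24 hours. It fell by 0.97 ± 0.06 (SE, n = 3 per group, adjusted p = 4.4e-08). The arrays of the 2 media did not overlap in any of these 3 genes. POLE, the catalytic subunit of polymerase epsilon, fell by 0.59, POLA2 by 0.41, POLD2 by 0.36 and POLA1, the catalytic subunit of polymerase alpha, by 0.35. The POLA2 call at 24 hours was lost with the mean of its probe sets and without cross-hybridising types.

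POLD3, an accessory subunit of polymerase delta, stood at 8.72, 8.72 and 8.70 on the HFM arrays and 8.72, 8.71 and 8.79 on the GM arrays at 24 hours, a change of -0.03 (adjusted p = 0.76) with overlapping groups. Its other probe set fell by 0.79 at 24 hours (adjusted p = 7.3e-06). At 12 hours POLD3 was 9.32, 9.09 and 9.07 on the HFM arrays and 8.81, 8.79 and 8.81 on the GM arrays, and it rose by 0.36 ± 0.06 (SE, n = 3 per group, adjusted p = 0.00058), whereas the other probe set fell by 0.54 (adjusted p = 0.00032). The direction of POLD3 is therefore uncertain. PRIM2, the large primase subunit, stood at -0.26 (adjusted p = 0.068) at 24 hours and -0.28 (adjusted p = 0.051) at 12 hours.

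The subunits of one enzyme parted at 12 hours. POLE2 was 9.95, 9.82 and 9.82 on the HFM arrays and 9.19, 9.13 and 9.12 on the GM arrays at 12 hours, and it rose by 0.71 ± 0.05 (SE, n = 3 per group, adjusted p = 4.4e-07), while its catalytic partner POLE fell by 0.26 (adjusted p = 0.0084). POLD1 was 8.42, 8.28 and 8.26 on the HFM arrays and 8.71, 8.74 and 8.73 on the GM arrays at 12 hours, and it fell by 0.41 ± 0.06 (SE, n = 3 per group, adjusted p = 9.2e-05). PRIM1 was 9.76, 9.48 and 9.52 on the HFM arrays and 9.34, 9.35 and 9.32 on the GM arrays at 12 hours, and it rose by 0.25 ± 0.07 (SE, n = 3 per group, adjusted p = 0.011). The catalytic and accessory subunits of polymerase alpha also parted, POLA1 rising by 0.19 and POLA2 falling by 0.19. The POLA2 call was lost in 7 of 12 fits that left out 1 array and the POLA1 call in 1.

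The clamp, its loader and the single-strand binding protein RPA all fell at 24 hours, 9 of 9, with a median of -0.39. RPA2, the middle subunit of RPA, stood at 8.72, 8.67 and 8.70 on the HFM arrays and 9.53, 9.56 and 9.53 on the GM arrays at 24 hours. It fell by 0.85 ± 0.04 (SE, n = 3 per group, adjusted p = 1.1e-08). PCNA, the sliding clamp that tethers polymerases to DNA, was 11.34, 11.37 and 11.36 on the HFM arrays and 11.98, 12.07 and 12.12 on the GM arrays at 24 hours, and it fell by 0.70 ± 0.11 (SE, n = 3 per group, adjusted p = 0.00016). RPA3, the small subunit, was 9.88, 9.89 and 9.88 on the HFM arrays and 10.33, 10.38 and 10.32 on the GM arrays at 24 hours, and it fell by 0.46 ± 0.07 (SE, n = 3 per group, adjusted p = 7e-05). In all 3 genes the media did not overlap. RFC4, a subunit of the clamp loader, was 9.38, 9.31 and 9.41 on the HFM arrays and 9.52, 9.56 and 9.58 on the GM arrays at 24 hours, the smallest fall of the class at 0.19 (adjusted p = 0.005).

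The 12-hour values again differed within complexes. RFC4 was 9.79, 9.81 and 9.78 on the HFM arrays and 9.21, 9.17 and 9.26 on the GM arrays at 12 hours, and it rose by 0.58 ± 0.05 (SE, n = 3 per group, adjusted p = 1.4e-06). RFC1 rose by 0.48 and RFC3 by 0.27, RFC2 fell by 0.36, and RFC5 at 0.07 did not pass. Another RFC5 probe set was higher, at 0.26 (adjusted p = 0.042), and its remaining probe set did not pass. Of the trimer RPA, RPA2 was 9.62, 9.57 and 9.60 on the HFM arrays and 10.07, 10.08 and 10.10 on the GM arrays at 12 hours, and it fell by 0.49 ± 0.04 (SE, n = 3 per group, adjusted p = 2.1e-06). RPA3, at 10.51, 10.27 and 10.23 on the HFM arrays and 10.47, 10.47 and 10.48 on the GM arrays at 12 hours, and RPA1 did not pass, at -0.14 (adjusted p = 0.08) and 0.07 (adjusted p = 0.25). Another RPA1 probe set was higher, at 0.24 (adjusted p = 0.024), and its remaining probe set did not pass. PCNA was 11.67, 12.18 and 12.18 on the HFM arrays and 12.01, 12.00 and 11.99 on the GM arrays at 12 hours, with replicate 1 of HFM below all other arrays of that time, and a change of 0.01 (adjusted p = 0.94). When arrays with high and low hybridisation controls were given separate terms, which leaves that array as the link between the media, PCNA was lower at 12 hours at -0.33 (adjusted p = 0.00064), and without that array it passed as higher.

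Of the 5 fork processing and protection genes, 4 fell at 24 hours. FEN1, the nuclease that trims the flaps of lagging-strand fragments, stood at 8.67, 8.80 and 8.69 on the HFM arrays and 10.54, 10.55 and 10.54 on the GM arrays at 24 hours. It fell by 1.82 ± 0.05 (SE, n = 3 per group, adjusted p = 2.2e-10), which is 3.54-fold lower, and its second probe set fell by 2.09 (adjusted p = 8.3e-10). LIG1, the ligase that seals the same fragments, fell by 0.35, so the consecutive steps differed in size. TIMELESS, a fork protection protein, was 7.94, 7.95 and 7.97 on the HFM arrays and 8.70, 8.75 and 8.74 on the GM arrays at 24 hours. It fell by 0.77 ± 0.06 (SE, n = 3 per group, adjusted p = 3.5e-07). CLSPN encodes claspin, the mediator of the replication checkpoint, and stood at 5.80, 5.77 and 5.81 on the HFM arrays and 6.18, 6.19 and 6.14 on the GM arrays at 24 hours, a fall of 0.38 (adjusted p = 0.00036). WDHD1, which links polymerase alpha to the helicase, was 7.42, 7.49 and 7.51 on the HFM arrays and 7.59, 7.66 and 7.51 on the GM arrays at 24 hours. Its groups overlapped and its change of -0.11 (adjusted p = 0.11) did not pass. Another WDHD1 probe set was lower at 24 hours, at -0.39 (adjusted p = 0.017), and the remaining probe set stood at 0.01 (adjusted p = 0.96).

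At 12 hours WDHD1 was 7.81, 7.71 and 7.69 on the HFM arrays and 6.92, 6.96 and 6.92 on the GM arrays, and it rose by 0.80 ± 0.06 (SE, n = 3 per group, adjusted p = 3.9e-07), with its 3 probe sets all higher. CLSPN was 6.76, 6.55 and 6.53 on the HFM arrays and 6.30, 6.14 and 6.28 on the GM arrays at 12 hours, and it rose by 0.38 ± 0.07 (SE, n = 3 per group, adjusted p = 0.00048). TIMELESS, at 8.98, 8.75 and 8.80 on the HFM arrays and 9.21, 9.21 and 9.20 on the GM arrays at 12 hours, fell by 0.37 ± 0.06 (SE, n = 3 per group, adjusted p = 0.00024). The other TIMELESS probe set stood at -0.05 (adjusted p = 0.78) at 12 hours, and the TIMELESS call of that time was lost when cross-hybridising probe set types were left out. Of 4 CLSPN probe sets, 2 did not pass at 12 hours, at -0.08 and 0.18. FEN1 was 10.92, 10.79 and 10.79 on the HFM arrays and 11.01, 10.96 and 10.96 on the GM arrays at 12 hours, and its fall of 0.14 (adjusted p = 0.034) was lost in 5 of 12 fits that left out 1 array.

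All 3 nucleotide supply genes fell at 24 hours. On the chosen probe sets their median of -0.25 was the smallest fall among classes of more than 1 gene. TK1, the thymidine kinase of the salvage route, stood at 9.29, 9.31 and 9.36 on the HFM arrays and 9.80, 9.80 and 9.69 on the GM arrays at 24 hours. It fell by 0.44 ± 0.07 (SE, n = 3 per group, adjusted p = 9.5e-05). RRM1, the large subunit of ribonucleotide reductase, was 10.97, 10.90 and 10.96 on the HFM arrays and 11.17, 11.20 and 11.20 on the GM arrays at 24 hours, and it fell by 0.25 ± 0.04 (SE, n = 3 per group, adjusted p = 0.00046). RRM2, its S-phase subunit, was 11.90, 12.01 and 12.04 on the HFM arrays and 12.16, 12.22 and 12.25 on the GM arrays at 24 hours, and it fell by 0.22 ± 0.09 (SE, n = 3 per group, adjusted p = 0.041). The RRM2 call was lost in 9 of 12 fits that left out 1 array. The other probe set of each gene fell more at 24 hours. These falls were 0.33 for RRM2 (adjusted p = 0.0017), 0.38 for RRM1 (adjusted p = 0.00085) and 0.57 for TK1 (adjusted p = 3.6e-05). After centring each array, 1 of the 3 genes, TK1, was still lower.

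At 12 hours TK1 was 10.17, 9.95 and 9.93 on the HFM arrays and 10.46, 10.46 and 10.42 on the GM arrays, and it fell by 0.43 ± 0.07 (SE, n = 3 per group, adjusted p = 0.00018). RRM1, at 11.09, 11.12 and 11.17 on the HFM arrays and 11.06, 11.05 and 11.05 on the GM arrays at 12 hours, and RRM2, at 11.99, 12.31 and 12.38 on the HFM arrays and 12.23, 12.22 and 12.18 on the GM arrays at 12 hours, did not pass, with changes of 0.07 (adjusted p = 0.17) and 0.02 (adjusted p = 0.88). The other RRM1 probe set was higher at 12 hours, at 0.39 (adjusted p = 0.00094), as was the other RRM2 probe set, at 0.19 (adjusted p = 0.049). Replicate 1 of HFM had the lowest RRM2 value of that time. Without it both reductase genes passed as higher, and with the control class term RRM2 was lower at -0.22 (adjusted p = 0.013).

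The S-phase entry regulators included large falls and the member with the smallest change at 24 hours. E2F2, an activator of S-phase genes, stood at 5.49, 5.52 and 5.56 on the HFM arrays and 7.22, 7.06 and 7.13 on the GM arrays at 24 hours. It fell by 1.61 ± 0.06 (SE, n = 3 per group, adjusted p = 1.7e-09). Its other probe sets stood at -0.26 (adjusted p = 0.034) and 0.05 (adjusted p = 0.76), so the size of its fall rests on 1 probe set. CDC25A, the phosphatase that activates CDK2, was 5.72, 5.86 and 5.64 on the HFM arrays and 7.39, 7.32 and 7.29 on the GM arrays at 24 hours, and it fell by 1.59 ± 0.08 (SE, n = 3 per group, adjusted p = 1.1e-08). CCNE2, which encodes cyclin E2, was 7.42, 7.56 and 7.63 on the HFM arrays and 8.47, 8.63 and 8.76 on the GM arrays at 24 hours, and it fell by 1.08 ± 0.13 (SE, n = 3 per group, adjusted p = 1.8e-05). CCNE1 fell by 0.73. E2F1, the other activator in the list, was 7.14, 7.20 and 6.86 on the HFM arrays and 7.25, 7.07 and 6.90 on the GM arrays at 24 hours. Its groups overlapped and the change was -0.01 (adjusted p = 0.97).

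At 12 hours the activator E2F2 was 7.23, 7.02 and 7.12 on the HFM arrays and 7.72, 7.78 and 7.71 on the GM arrays, and it fell by 0.61 ± 0.06 (SE, n = 3 per group, adjusted p = 7.4e-06). CDC25A, at 7.74, 7.47 and 7.49 on the HFM arrays and 7.96, 7.87 and 7.97 on the GM arrays at 12 hours, fell by 0.37 ± 0.08 (SE, n = 3 per group, adjusted p = 0.002). The cyclins differed, since CCNE2 was 8.48, 9.05 and 8.97 on the HFM arrays and 8.27, 8.24 and 8.15 on the GM arrays at 12 hours, and it rose by 0.62 ± 0.13 (SE, n = 3 per group, adjusted p = 0.0016), whereas CCNE1 stood at -0.18 (adjusted p = 0.065). Replicate 1 of HFM had a CCNE2 value close to the GM arrays, and with the control class term the CCNE2 call was lost. E2F1, at 7.72, 7.51 and 7.50 on the HFM arrays and 7.57, 7.54 and 7.66 on the GM arrays at 12 hours, overlapped between the media and changed by -0.01 (adjusted p = 0.95). A second E2F1 probe set fell by 0.28 at 12 hours (adjusted p = 0.037).

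**Figure D3:**
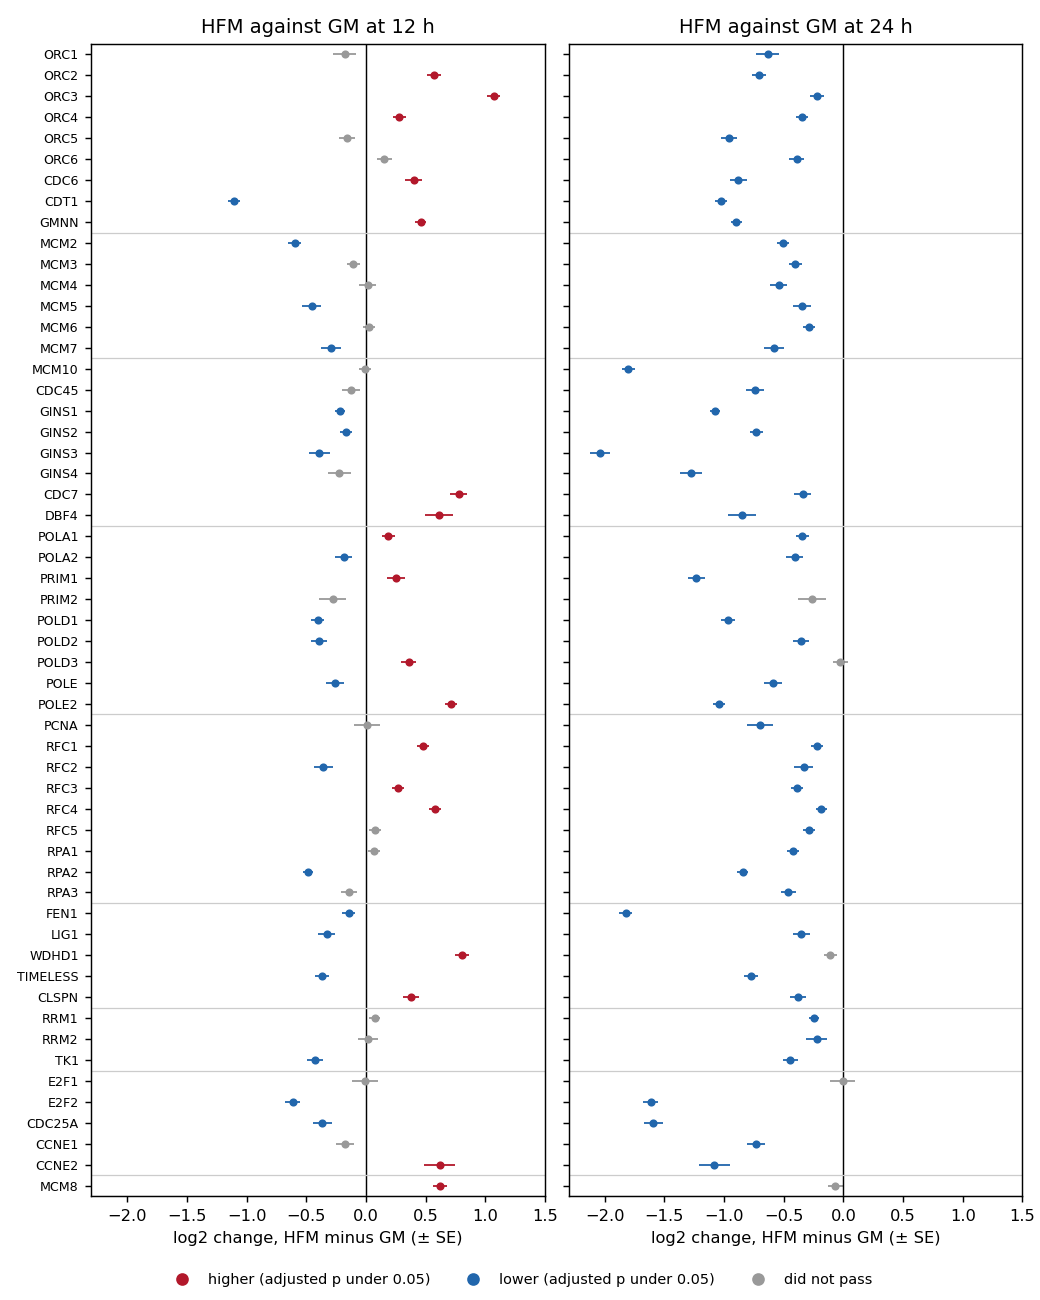
Log2 change of HFM against GM for each of the 55 genes at 12 hours (left panel) and 24 hours (right panel), with standard errors and colour by call. At 12 hours 18 genes are higher and 19 lower, and at 24 hours 50 are lower and none is higher.

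Over the whole list, HFM at 12 hours gave a divided picture. Of the 55 members, 18 were higher, 19 lower and 18 did not pass, where 28.9% of all genes were higher and 33.0% lower. The HFM arrays lay above the GM arrays for 21 members (30.4% of all genes) and below them for 21 (33.2%). These shares are close to those of all genes, so the counts are no result about the members. The median change was -0.01, against -0.07 over all genes, and 1 member, ORC3, rose and 1, CDT1, fell by at least 2-fold, against 1.94% and 0.236% of all genes. With the control class term 20 members were higher and 14 lower. Over all 13130 genes that term gave 4409 higher and 3570 lower, in place of 3789 and 4334. CCNE2, CDC25A, FEN1, GINS2, GINS3, LIG1, MCM7, POLA2 and POLE no longer passed with it, whereas MCM4, PCNA, PRIM2, RFC5, RPA1 and RRM2 did. Without replicate 1 of HFM the counts were 22 and 26 of the members, and 3957 and 5018 of all genes. The largest rises were ORC3 at 1.07, WDHD1 at 0.80, CDC7 at 0.78, POLE2 at 0.71, CCNE2 at 0.62, MCM8 at 0.62 and DBF4 at 0.61. After CDT1, the largest falls were E2F2 at -0.61, MCM2 at -0.60, RPA2 at -0.49 and MCM5 at -0.46.

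The 12-hour and 24-hour comparisons use different arrays. Of the members, 19 were lower in HFM at both times, against 16.2% of all genes, and 15 were lower at 24 hours and higher at 12 hours, against 9.19%. A further 16 were lower at 24 hours and did not pass at 12 hours, and 3 (POLD3, WDHD1 and MCM8) were higher at 12 hours and did not pass at 24 hours. Because 50 of the 55 members were lower at 24 hours, these counts largely follow from the 12-hour calls (18 higher, 19 lower). They are no separate result about both times. The group lower at both times held MCM2, MCM5 and MCM7, GINS1, GINS2 and GINS3, CDT1, FEN1, LIG1, TK1 and E2F2 among others. The group that changed direction held ORC2, ORC3, ORC4, CDC6, GMNN, CDC7, DBF4, POLA1, PRIM1, POLE2, RFC1, RFC3, RFC4, CLSPN and CCNE2.

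**Figure D4:**
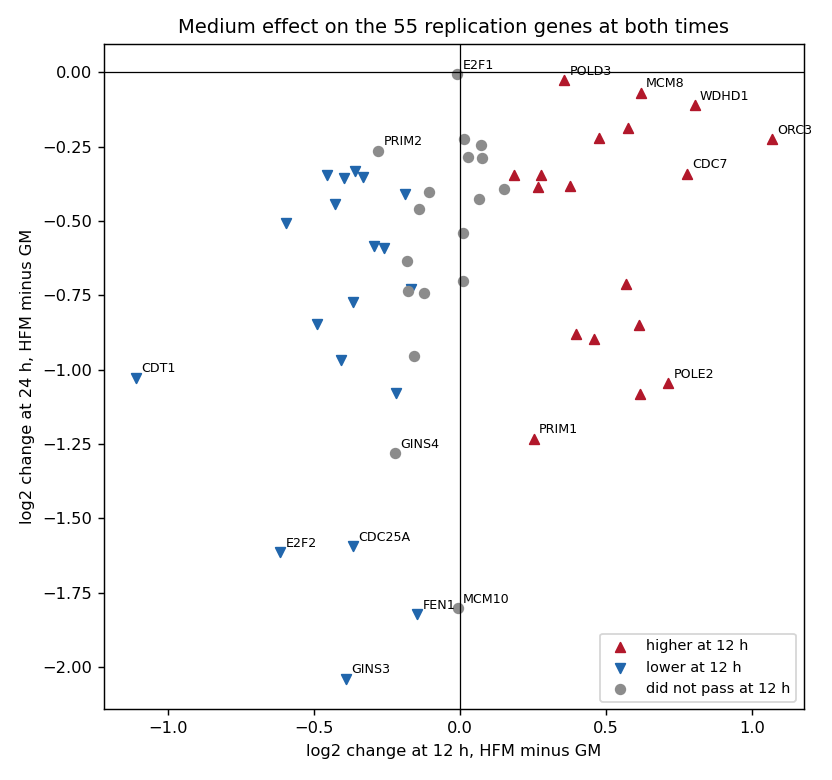
Log2 change of HFM against GM at 24 hours (vertical axis) against that at 12 hours (horizontal axis) for the 55 genes, with symbols by the 12-hour call. All points lie below 0 on the vertical axis, from -2.04 for GINS3 to -0.01 for E2F1, and spread from -1.11 to 1.07 on the horizontal axis.

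The HFM effect at 24 hours was lower than that at 12 hours in 43 of 55 members and higher in 0, by the limma interaction of medium and time, against 33.4% and 19.4% of all genes. The median difference was -0.56, against -0.04 over all genes. MCM10 had the largest difference, -1.79 ± 0.07 (SE, n = 3 per group, adjusted p = 1.1e-08), followed by POLE2 at -1.76, CCNE2 at -1.70, FEN1 at -1.68 and GINS3 at -1.65. CDT1 at 0.08 (adjusted p = 0.38), MCM2 at 0.09 (adjusted p = 0.34), MCM5 at 0.11 (adjusted p = 0.41), RFC2 at 0.03, TK1 at -0.02, LIG1 at -0.02 and E2F1 at 0.00 were among the 12 that did not pass. Without replicate 1 of HFM at 12 hours, 3 members (MCM2, MCM5 and RFC2) passed as higher, beside 3413 of all 13130 genes. After centring each array 6 members were higher and 37 lower, with a median of -0.36 over the members. All genes under that scaling had a median of 0.16 in place of -0.04. Of them, 5068 were higher and 3134 lower, in place of 2551 and 4380. With the control class term RFC2 passed as lower, at -0.21. A difference of at least 2-fold was reached by 14 members in the lower direction and 0 in the higher, against 6.71% and 1.25% of all genes.

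At 24 against 12 hours in GM, 17 members were higher and 29 lower, against 29.4% and 40.5% of all genes. In HFM over the same interval 50 were lower and 0 higher, against 43.1% and 20.1%. By at least 2-fold, 2 members were higher and 1 lower in GM (3.85% and 0.419% of all genes), and 0 were higher and 16 lower in HFM (2.35% and 5.3%). The median changes were -0.81 in HFM and -0.14 in GM, against -0.12 over all genes in each medium. The comparison over time in GM shares the GM 12-hour arrays with the 12-hour medium comparison, and its values are given side by side with those only as a description. ORC3 was higher by 1.20 in GM at 24 against 12 hours and by 1.07 in HFM against GM at 12 hours. For DBF4 the same pair of values was 1.04 and 0.61, for CDT1 -1.07 and -1.11, and for MCM5 -0.99 and -0.46. In HFM over time the largest falls were FEN1 at -2.11, GINS3 at -2.03, CDC25A at -1.83 and MCM10 at -1.71. HFM at 24 hours had the lowest of the 4 group means in 47 of the 55 members and in 44.4% of all genes.

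**Figure D5:**
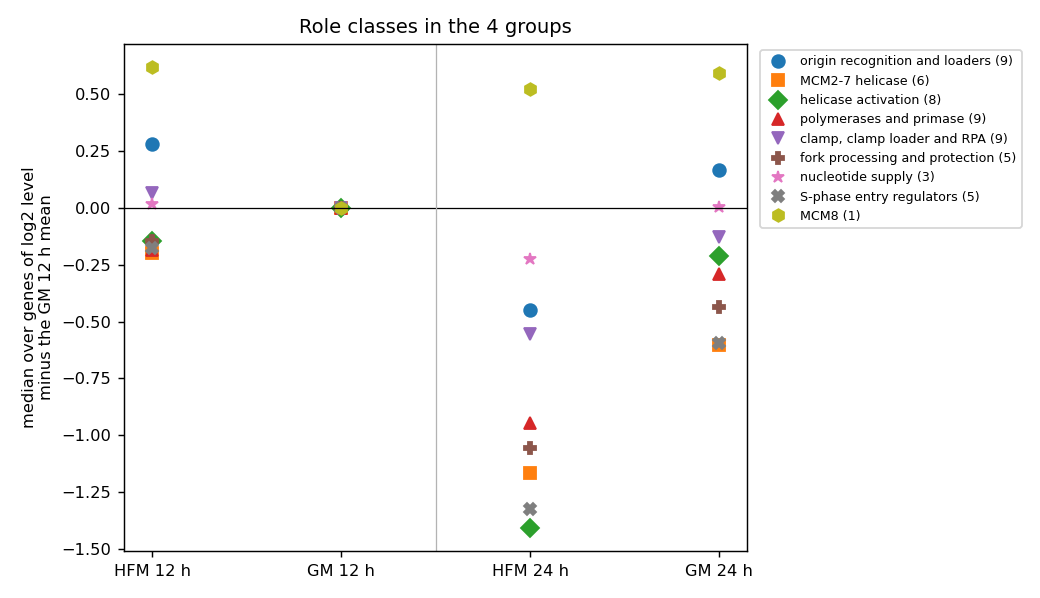
Median over the genes of each role class of the log2 level minus the GM 12-hour mean, for the 4 groups, with HFM left of GM at each time and the number of genes in parentheses. In HFM at 24 hours the medians run from -1.41 for helicase activation to -0.22 for nucleotide supply, with MCM8 alone at 0.52.

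Set against GM at 12 hours, the role classes in HFM at 24 hours ordered from helicase activation at a median of -1.41 and S-phase entry regulators at -1.33, through the MCM ring at -1.17, fork processing at -1.06 and polymerases at -0.95, to the clamp group at -0.55, origin recognition and loaders at -0.45 and nucleotide supply at -0.22. In GM at 24 hours the MCM ring was at -0.60 and the entry regulators at -0.59, whereas origin recognition and loaders were at 0.17. These are descriptions of 3 to 9 genes per class, and the differences between classes were not tested.

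Other genes of the pathway were read from lists drawn up beside the members. Their counts are read beside the 37.5% of all genes that were lower and the 20.6% that were higher in HFM at 24 hours, and the all-gene median of -0.08. At 24 hours, 18 of 29 tested E2F, pocket protein and CDK control genes were lower and 7 higher, with a median of -0.43. E2F5, a repressive E2F, changed by -1.69, RBL1, the pocket protein p107, by -1.65 and the atypical repressor E2F8 by -1.34. The repressors did not move one way, since E2F7, the other atypical E2F, rose by 1.08 (adjusted p = 9.4e-08), as did the CDK inhibitor CDKN1C by 1.04 (adjusted p = 5.8e-07), both named here after their values were seen. Of 17 further nucleotide synthesis genes 11 were lower and 2 higher, with a median of -0.23. UMPS, which makes uridine monophosphate, fell by 1.95, DTYMK, the thymidylate kinase, by 0.93, and RRM2B, the p53-induced reductase subunit, rose by 0.74, unlike RRM2. All 8 chromatin assembly and maintenance methylation genes were lower, with a median of -0.90, led by the histone chaperones ASF1A at -1.91, ASF1B at -1.27 and CHAF1A at -1.24. Of 22 checkpoint and further replication genes 17 were lower and 2 higher, with a median of -0.33, including TIPIN, the partner of TIMELESS, at -1.32 and the checkpoint kinase CHEK1 at -0.77.

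At 12 hours 28.9% of all genes were higher in HFM and 33.0% lower, and several counts in these lists lay near those shares. In HFM 10 of the E2F and CDK control genes were higher and 9 lower, with MYBL2 at -0.56, the S-phase cyclin CCNA2 at 0.55 and CDK6 at 0.54. Of the nucleotide synthesis genes 4 were higher and 6 lower, of the chromatin assembly genes 3 and 3, and of the checkpoint genes 9 and 6. ETAA1, an activator of the checkpoint kinase ATR, rose by 0.85, and RNASEH2A, which removes ribonucleotides from DNA, fell by 0.65. The corresponding median changes were 0.12, -0.09, -0.10 and 0.08, against -0.07 over all genes.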

How the data were processed

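The authors deposited log2 expression values for 54675 probe sets on 12 Affymetrix arrays, made with GCRMA per the submitters' processing notes. No version is given there. Of the probe sets, 41097 had 1 symbol in the platform annotation, 1801 several and 11777 none. The probe set of 1 symbol with the highest mean represented each of 19775 genes, and the 13130 genes reaching log2 4 on 3 or more arrays entered the tests. All arrays entered 1 model of 4 group means (lmFit and eBayes of limma 3.58.1, R 4.3.3), with Benjamini-Hochberg adjustment over all tested genes in each of 5 comparisons, and genes under 0.05 were called. Adjusted p-values throughout are limma's, and those of single probe sets were adjusted over all named probe sets. The fit was tested on simulated data. Members, role classes and related lists were chosen with earlier results of these data known. Values on all arrays are given, per role class, for the members ranked 1 to 3 by change at 24 hours, the 2 with the largest change at 12 hours and the 1 with the smallest at 24 hours. Of the related lists, up to 3 called genes per time are named. Alternatives were other filters, probe set choices, scalings, variance models, a replicate block, a control class term, a 2-fold minimum and the omission of single arrays. Probe sets with names ending in _x_at, _s_at or _a_at were left out as cross-hybridising types. Whether any of them does cross-hybridise was not tested. Plots used matplotlib 3.10.9 (Python 3.11.15).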

Additional observations from a re-analysis of the deposited data

Results flagged for a closer look

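A change of the HFM effect between times was tested as the interaction of medium and time in limma, and 43 members passed it. Each value is the log2 HFM effect at 24 hours minus that at 12 hours. Among helicase activation genes the values were MCM10 at -1.79, GINS3 at -1.65, DBF4 at -1.46, CDC7 at -1.12, GINS4 at -1.06, GINS1 at -0.86, CDC45 at -0.62 and GINS2 at -0.56. Among polymerase and primase genes the values were POLE2 at -1.76, PRIM1 at -1.49, POLD1 at -0.56, POLA1 at -0.53, POLD3 at -0.38 and POLE at -0.33. The entry regulators comprised CCNE2 at -1.70, CDC25A at -1.23, E2F2 at -1.0 and CCNE1 at -0.56. Fork processing genes were FEN1 at -1.68, WDHD1 at -0.92, CLSPN at -0.76 and TIMELESS at -0.41. Origin recognition and loading genes were GMNN at -1.36, ORC3 at -1.29, ORC2 at -1.28, CDC6 at -1.28, ORC5 at -0.80, ORC4 at -0.62, ORC6 at -0.54 and ORC1 at -0.45. In the clamp, loader and RPA group the values were RFC4 at -0.76, PCNA at -0.71, RFC1 at -0.70, RFC3 at -0.66, RPA1 at -0.49, RFC5 at -0.36, RPA2 at -0.36 and RPA3 at -0.32. Of the MCM ring the values were MCM4 at -0.55, MCM6 at -0.31 and MCM3 at -0.30. The remaining values were MCM8 at -0.69 and RRM1 at -0.32. All 43 are negative. GINS2 passed in the other direction on the probe set that was taken when cross-hybridising types were removed.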

How the results depend on the processing

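Calls at 24 hours were stable under most alternatives, with 49 to 51 members lower when 1 array was left out, 50 after repeated quantile normalisation and 43 after centring each array. With a 2-fold minimum, 11 members were lower at 24 hours, 1 higher and 1 lower at 12 hours, 14 lower for medium by time, 2 higher and 1 lower over time in GM, and 16 lower over time in HFM. After centring, 1 member was higher at 24 hours (POLD3), 6 for medium by time and 2 over time in HFM. Over all 13130 genes the counts of higher genes were then 4852, 5068 and 5133. Averaging all probe sets per gene gave 1 higher for medium by time (CDT1), as did leaving out cross-hybridising probe set types (GINS2), which kept 42 members and gave 10 higher over time in GM. Leaving out 1 array gave 17 to 22 higher and 16 to 26 lower at 12 hours, 0 higher at 24 hours, 0 to 3 higher and 43 to 44 lower for medium by time, 14 to 19 higher and 26 to 31 lower over time in GM, and 0 higher and 48 to 53 lower over time in HFM. After centring, the members' median was -0.33 at 24 hours, -0.36 for medium by time and -0.59 over time in HFM. The all-gene medians were then 0.10, 0.16 and 0.10. Among calls on either side, directions turned for MCM10 at 12 hours without cross-hybridising types (0.23), POLD3 at 12 hours with the mean of its probe sets (-0.089), PCNA (-0.33) and RRM2 (-0.22) at 12 hours with the control class term, POLD3 at 24 hours (0.15), TK1 for medium by time (0.19), and ORC3 (0.13), ORC4 (0.11) and RRM1 (0.03) over time in HFM after centring, CDC6 at 12 hours (-0.04), GINS2 at 24 hours, for medium by time (0.30) and over time in HFM (0.13), and WDHD1 over time in HFM (0.08) without cross-hybridising types, and RFC2 for medium by time (-0.21) and CCNE2 (-0.13), GINS4 (0.33), PCNA (-0.45), POLD3 (0.18) and RRM2 (-0.35) over time in GM with the control class term. With the control class term WDHD1 newly passed at 24 hours, MCM7, POLA2 and RFC2 for medium by time, and MCM8, PRIM2 and RFC1 over time in HFM. Over time in GM the calls of CCNE2, E2F1, GINS3, MCM6, ORC1, ORC6, PRIM2, RFC5, RPA1 and RRM1 were lost. Those of GINS4, MCM10, PCNA, POLD3 and RRM2 were gained. The control class differed within a group only in HFM at 12 hours, where replicate 1 alone had high controls. It separated all GM arrays at 12 hours from all GM arrays at 24 hours. What that term changed in the estimates therefore rests on that replicate. Except for the alternatives' own construction, the cause was not tested. Of 18 pairs of same-numbered arrays from different groups, 7 had correlated deviations over 0.1 (range -0.17 to 0.42). Of the 12 arrays, 7 correlated best with their own number. Whether same-numbered arrays shared a culture or a batch cannot be told from these values. With the replicate block 19 members were higher and 22 lower at 12 hours, 51 lower at 24 hours, 44 lower for medium by time, 17 higher and 29 lower over time in GM and 51 lower over time in HFM.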

Other observations

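Genes of mitosis were read from a list of 30, all of which were tested. In HFM at 24 hours 28 were lower and 0 higher (37.5% and 20.6% of all genes), with a median of -0.67, beside -0.51 for the replication genes and -0.08 for all genes. ASPM, a spindle pole protein, changed by -1.59, the motor KIF11 by -1.32 and CDCA8, a subunit of the chromosomal passenger complex, by -1.25. In HFM at 12 hours 17 mitosis genes were higher and 6 lower (28.9% and 33.0% of all genes), with a median of 0.24, where the replication genes had 18 higher and 19 lower of 55 and a median of -0.01, and all genes one of -0.07. CENPE, a kinetochore motor, rose by 1.44, HMMR by 1.27 and the kinetochore protein NUF2 by 1.14. At 24 against 12 hours in GM 21 mitosis genes were higher and 2 lower (29.4% and 40.5% of all genes), with a median of 0.59, beside -0.14 for the replication genes and -0.12 for all genes. The difference between the lists was not tested.

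The 55 members had 106 probe sets of their symbol alone, and 33 members had more than 1. At 24 hours 0 called members had a further probe set called the other way. At 12 hours 1 called member, POLD3, had one. A further probe set that did not pass was present for 12 of the 29 called members with several at 24 hours (ORC5, CDT1, MCM4, MCM6, GINS2, POLA2, RFC1, RFC5, RPA1, CLSPN, E2F2 and CCNE1) and for 11 of 22 at 12 hours.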
